A study of Mus musculus with 6 samples.

Results

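Hmox1 and 9 other target genes of the transcription factor NRF2 (Nqo1, Gclm, Gclc, Gsta1, Txnrd1, Srxn1, Slc7a11, Prdx1 and G6pdx) were followed in mouse retina across 6 dual-colour arrays. A probe was taken if its RefSeq identifier belonged to one of the 10 genes, which gave 12 of the 39429 probes on the array, 2 each for Hmox1 and Prdx1 and 1 for each of the other genes. All 12 passed the filter on dim probes, and the 10 genes are 10 of the 24105 features tested. The genes were chosen by their Cy3 over Cy5 ratios on these same arrays, so their ratios and signals are given as a description. Their calls in the fit over all features are printed further on, and nothing is read from them.

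The study injected SH-42, SH-80 or phosphate-buffered saline (PBS, the control) into the vitreous of the right eye of adult male C57BL/6 mice, with 12 mice per group and a stated dose of 1 µM. Retinas were taken 7 days later and pooled by 4. There were 3 arrays for SH-42 and 3 for SH-80, and each carried RNA labelled as treated in the Cy3 (green) channel and RNA labelled as control in the Cy5 (red) channel. The dyes were never exchanged. The labels do not say whether the 6 control extracts came from separate pools. If each control pool took 4 of 12 retinas, only 3 such pools existed to serve the 6 arrays, and some arrays may share control RNA. The p-values therefore measure the spread between these arrays only, which may in part be technical.

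NRF2, encoded by Nfe2l2, is held in the cytoplasm and sent for degradation by KEAP1. Oxidants and electrophiles modify KEAP1, NRF2 then enters the nucleus, pairs with a small MAF protein and binds antioxidant response elements, and BACH1 occupies the same elements as a repressor until haem releases it. The target genes supply haem breakdown, glutathione, the thioredoxin and peroxiredoxin cycle, quinone reduction and NADPH. In the retina they are studied as a defence of photoreceptors, glia and pigment epithelium against oxidative injury.

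The antioxidant response element has the core TGACNNNGC, and a common relaxed form is TGAGNNNGC. RefSeq promoter windows (build GRCm38.p6, 250 bases before to 50 after a start) were read for 8 of the 10 genes, in 10 windows, and none was used here for Hmox1 and Gclc. Not all sites found are printed. Left out are a TGAGNNNGC site of Slc7a11, 97 bases upstream of a start, and another of Srxn1, 158 bases upstream. Sites after a start, in Srxn1 and Prdx1, are left out too. The stretches below show a core close to a start in genes whose Cy5 signals moved together (Prdx1, Txnrd1 and Gclm) and in genes whose signals were flat (Srxn1 and G6pdx). Each is written 5′ to 3′ on the strand on which the core reads forward, and the 9 capitals mark the core.
Prdx1, chr4:116685446-116685494, minus strand: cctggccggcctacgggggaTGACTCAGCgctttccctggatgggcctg
Txnrd1, chr10:82859094-82859142, minus strand: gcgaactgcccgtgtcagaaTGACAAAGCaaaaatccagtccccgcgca
Gclm, chr3:122245403-122245451, minus strand: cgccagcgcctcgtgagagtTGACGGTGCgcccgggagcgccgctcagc
Srxn1, chr2:152105459-152105507, plus strand: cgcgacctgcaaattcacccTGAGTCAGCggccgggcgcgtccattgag
G6pdx, chrX:74428909-74428957, plus strand: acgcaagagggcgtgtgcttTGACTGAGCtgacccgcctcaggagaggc

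Searched on both strands, TGACNNNGC or TGAGNNNGC lay in 6 of the 10 windows (60%), against 27.8% of all 32851 windows of the same length. The windows of the wider list of NRF2-linked genes described further on held either form in 21 of 75 (28%), close to the share of all windows, and TGAGNNNGC alone in 12%, against 17.6% of all windows. The Prdx1 and Srxn1 sites also hold the narrower form TGANTCAGC, which overlaps both cores. It lay in 1.19% of all windows and in 3 of the 75 wider-list windows (4%). A match is a description of letters, not a binding site. G6pdx and Srxn1, which held a core, had the narrowest Cy5 ranges of the 10 genes. The windows of Nqo1 and Gsta1 had neither core anywhere in them.

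Ratios are given as log2 of Cy3 over Cy5, so a positive value means more signal in Cy3. By the labels this is treated over control, but the deposited value table runs the other way, Cy5 over Cy3. Which dye carried which RNA was not settled, and "higher" and "lower" refer to Cy3 relative to Cy5. In bulk tissue, fewer cells of a type and less RNA per cell cannot be told apart. Rod markers were bright on every array, with a median log2 Cy5 signal of 16.37 to 16.93 over Gnat1, Pde6b, Sag and 2 further rod genes. No spot was saturated, and spots well above background made up 58.3% to 63.1% in Cy3 and 70.9% to 76.7% in Cy5. SH-42 replicate 1 stood apart: against each of the other 5 arrays the correlation of ratios across features was r = -0.16 to 0.16, whereas the 10 pairs among those 5 arrays gave 0.51 to 0.87. Slide 1 held SH-42 replicates 1 and 2, and slide 2 held SH-42 replicate 3 and the 3 SH-80 arrays.

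Hmox1 encodes haem oxygenase 1, the inducible enzyme that opens the haem ring to give biliverdin, carbon monoxide and iron. With its bright probe (A_51_P263965) the log2 ratio was -1.96, -1.93 and -0.57 on SH-42 replicates 1, 2 and 3, and 0.69, 0.53 and 0.34 on SH-80 replicates 1, 2 and 3. All 3 SH-42 arrays were thus below 0 and all 3 SH-80 arrays above it, with no overlap. The means were -1.48 ± 0.79 (SD, n = 3) for SH-42 and 0.52 ± 0.18 (SD, n = 3) for SH-80, a difference of -2.00. By absolute size this difference ranked 6 among the 24105 features, but no feature passed for SH-42 minus SH-80 in limma (0 at an adjusted p of 0.05, 1045 at an unadjusted p under 0.05, percent called 0%).

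The difference between the compounds lay in the Cy5 channel, which is labelled as control on every array. The normalised log2 Cy5 signal of the bright probe was 10.63, 10.68 and 9.30 on SH-42 replicates 1, 2 and 3, and 8.07, 8.06 and 8.33 on SH-80 replicates 1, 2 and 3. In Cy3 it stayed between 8.60 and 8.76 on all 6 arrays, a span of 1.12-fold against 6.13-fold in Cy5. Cy5 varied more than Cy3 over all features as well, with a median SD over the 6 arrays of 0.15 against 0.07 log2 units. The geometric mean Cy5 signal was 4.14-fold higher on SH-42 than on SH-80 arrays. The raw median spot intensities separated the groups before any correction. In Cy5 they were 1802.5, 1817.5 and 716 on the SH-42 arrays and 322, 337 and 349 on the SH-80 arrays, and in Cy3 361 to 384. Negative control spots had a median of 51 to 54.5 in Cy5 and 111.5 to 119.5 in Cy3, so the bright probe was above them in both channels throughout.

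**Figure D1:**
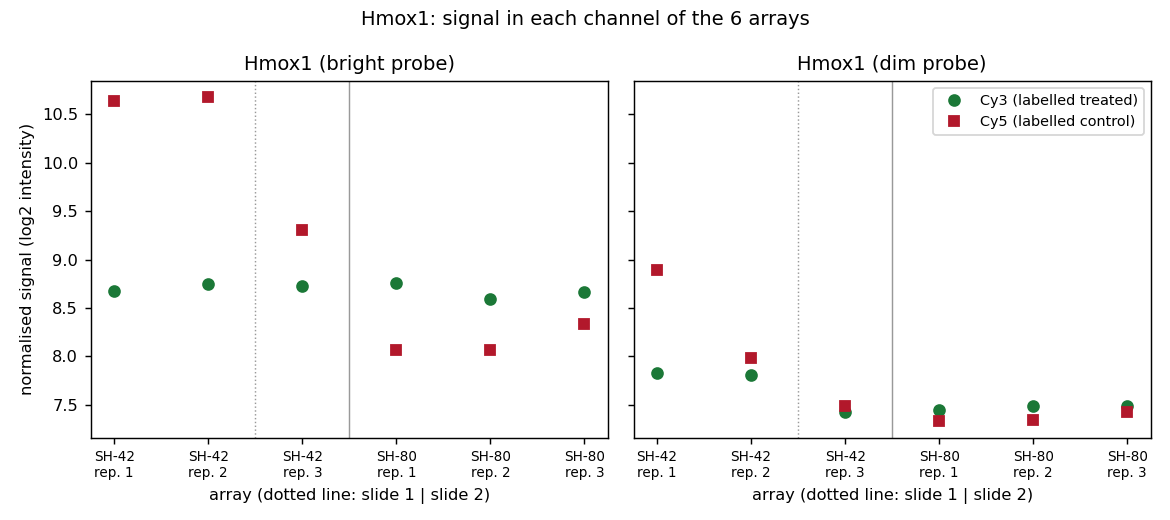
Normalised log2 intensity of the bright and the dim Hmox1 probe in Cy3 (green circles) and Cy5 (red squares) on each of the 6 arrays, 1 point per array and channel. For the bright probe Cy3 stays between 8.60 and 8.76, while Cy5 is 9.30 to 10.68 on the SH-42 arrays and 8.06 to 8.33 on the SH-80 arrays.

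SH-42 replicates 1 and 2 shared slide 1 and had the highest Cy5 signals, so slide and compound overlap in part. Within slide 2, where both compounds were present, SH-42 replicate 3 differed from the mean of the 3 SH-80 arrays by -1.09 log2 units and lay below each of them. Without SH-42 replicate 1 the difference between the compounds was -1.77. Separation of the groups, with SH-42 arrays below SH-80 arrays and no overlap in the log ratio, occurred for 5.55% of features, and for 14.3% in either direction. Among the 10 genes, 1 showed it, namely Hmox1, with both of its probes after loess. With the dim probe the groups overlapped in the processed signals and in the deposited table. In the Cy5 signal, SH-42 arrays all above SH-80 arrays were found for 4.48% of features (13.4% in either direction) and again for 1 of the 10 genes, Hmox1.

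The dim Hmox1 probe (A_55_P2029687) gave smaller values, with log2 ratios of -1.06, -0.18 and -0.06 on SH-42 replicates 1, 2 and 3 and of 0.12, 0.14 and 0.06 on SH-80 replicates 1, 2 and 3. After loess its order of groups was that of the bright probe, and the groups did not overlap, but only SH-42 replicate 1 was far from 0. By the processed signals of the scanner files, SH-42 replicate 3 read 0.13 and SH-80 replicate 3 read 0.10, so the groups overlapped. The deposited table, as Cy5 over Cy3, held -0.14 and -0.12 for these arrays. On SH-42 replicate 2, where the bright probe read -1.93, the 2 probes differed by -1.75 log2 units (bright minus dim). Raw Cy5 intensities of the dim probe were 517.5, 261 and 177 on the SH-42 arrays and 160, 174.5 and 175 on the SH-80 arrays, near its Cy3 range of 170 to 223. Across the 6 arrays the ratios of both probes correlated at r = 0.78, a description over arrays that share slides. The mean of both probes gave a difference between the compounds of -1.27 in place of -2.00.

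**Figure D2:**
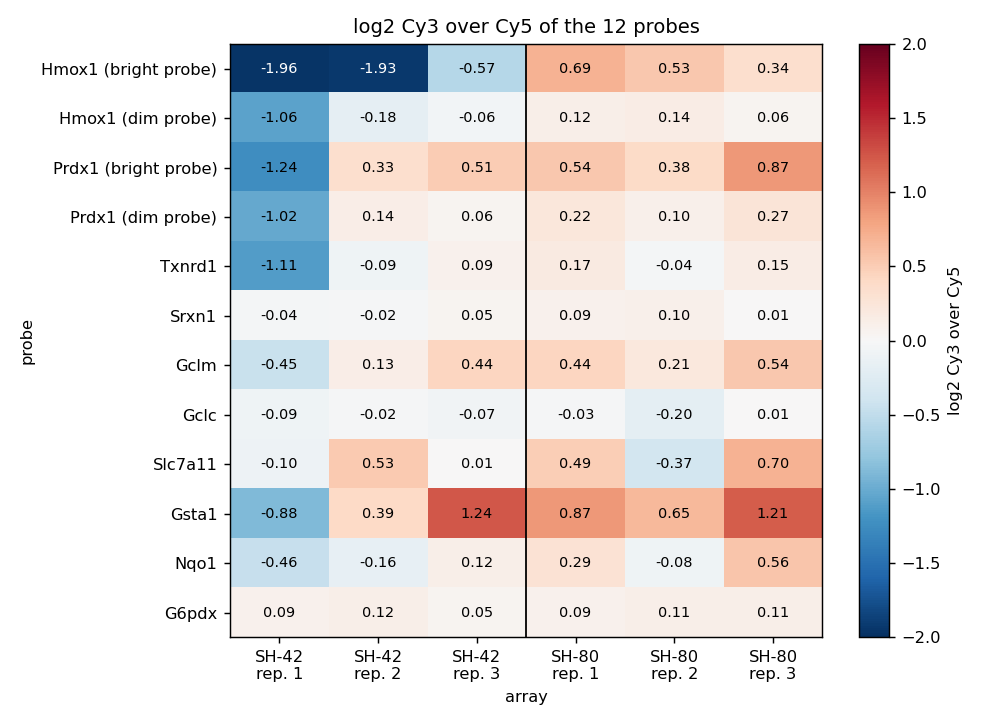
Log2 Cy3 over Cy5 of the 12 probes (rows) on the 6 arrays (columns), with the value printed in each cell and blue for more Cy5 signal. Hmox1's bright probe is blue on all 3 SH-42 arrays, whereas Prdx1, Txnrd1, Gclm, Gsta1 and Nqo1 are at their lowest on SH-42 replicate 1.

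Prdx1 encodes peroxiredoxin 1, which reduces peroxides and is then restored by thioredoxin. Its bright probe had log2 ratios of -1.24, 0.33 and 0.51 on SH-42 replicates 1, 2 and 3, and of 0.54, 0.38 and 0.87 on SH-80 replicates 1, 2 and 3. Only SH-42 replicate 1 was below 0, and the other 2 SH-42 arrays lay near or within the SH-80 range. The log2 Cy5 signal was 14.12 on SH-42 replicate 1 and 12.09 to 12.60 on the other 5 arrays, which is 2.88-fold above the highest of them, while Cy3 spanned 1.06-fold. The dim Prdx1 probe had the same shape, with -1.02 on SH-42 replicate 1 and 0.06 to 0.27 elsewhere, and its ratios correlated with those of the bright probe at r = 0.98 over 6 arrays. In contrast to Hmox1, both probes thus placed the same array apart.

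Txnrd1, the cytosolic thioredoxin reductase that feeds NADPH electrons into that cycle, had log2 ratios of -1.11, -0.09 and 0.09 on SH-42 replicates 1, 2 and 3 and of 0.17, -0.04 and 0.15 on SH-80 replicates 1, 2 and 3. Its Cy5 signal on SH-42 replicate 1 was 1.93-fold above the highest other array, and Cy3 spanned 1.06-fold. Srxn1, sulfiredoxin, which rescues overoxidised peroxiredoxins, was flat in contrast. Its log2 ratios were -0.04, -0.02 and 0.05 for SH-42 and 0.09, 0.10 and 0.01 for SH-80, and its Cy5 signal spanned 1.11-fold over all 6. Within the peroxiredoxin cycle, SH-42 replicate 1 stood apart for the peroxidase and the reductase and not for the repair enzyme.

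Glutathione synthesis begins with glutamate-cysteine ligase, whose catalytic subunit is Gclc and whose modifier subunit is Gclm. Gclm had log2 ratios of -0.45, 0.13 and 0.44 on SH-42 replicates 1, 2 and 3 and of 0.44, 0.21 and 0.54 on SH-80 replicates 1, 2 and 3. Its Cy5 signal on SH-42 replicate 1 was 1.48-fold above the highest other array. Gclc stayed between -0.20 and 0.01 on all 6 arrays, with a mean of -0.06 ± 0.04 (SD, n = 3) for SH-42 and -0.07 ± 0.11 (SD, n = 3) for SH-80. The 2 subunits of the enzyme thus had unlike patterns on these arrays, Gclm with 1 array apart and Gclc with none.

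Slc7a11, the cystine transporter subunit of system xc- that supplies cysteine for glutathione, was too dim for a ratio. Its Cy3 signal was well above background on 2 of 6 arrays (SH-42 replicate 1 and SH-80 replicate 2) and its Cy5 signal on 5 of 6, all but SH-80 replicate 3. The log2 ratios ranged from -0.37 to 0.70 within SH-80 alone, a range that held all 3 SH-42 values (-0.10, 0.53 and 0.01).

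Gsta1, a glutathione S-transferase that joins glutathione to electrophiles, had widely spread log2 ratios. They were -0.88, 0.39 and 1.24 on SH-42 replicates 1, 2 and 3, and 0.87, 0.65 and 1.21 on SH-80 replicates 1, 2 and 3. SH-42 replicate 1 had the only negative value, and SH-42 replicate 3 the highest of the 6. The Cy5 signal on SH-42 replicate 1 was 2.35-fold above the highest other array, and the other 5 arrays themselves spanned 0.91 log2 units in Cy5. Gsta2, a near-identical copy, gave -0.95, 0.39 and 1.51 on the SH-42 arrays and 0.90, 0.56 and 1.41 on the SH-80 arrays, and the 2 genes may share probe signal.

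Nqo1, the quinone reductase that is the classic read-out of NRF2 activity, had log2 ratios of -0.46, -0.16 and 0.12 on SH-42 replicates 1, 2 and 3, and of 0.29, -0.08 and 0.56 on SH-80 replicates 1, 2 and 3. The groups overlapped, and the Cy5 signal was highest on SH-42 replicate 1, by 0.22 log2 units over the next array. G6pdx, the X-linked glucose-6-phosphate dehydrogenase that makes NADPH, was the steadiest of the 10 genes, with log2 ratios of 0.05 to 0.12 on all 6 arrays and a Cy5 span of 1.08-fold. The direction of such small ratios depends on the dye normalisation: with arrays centred on their median and no loess, G6pdx read -0.21 for SH-42 and -0.19 for SH-80, Srxn1 -0.32 and -0.23, Gclm -0.13 for SH-42 and Txnrd1 -0.17 for SH-80, and the median of all features moved to -0.15 for both compounds.

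**Figure D3:**
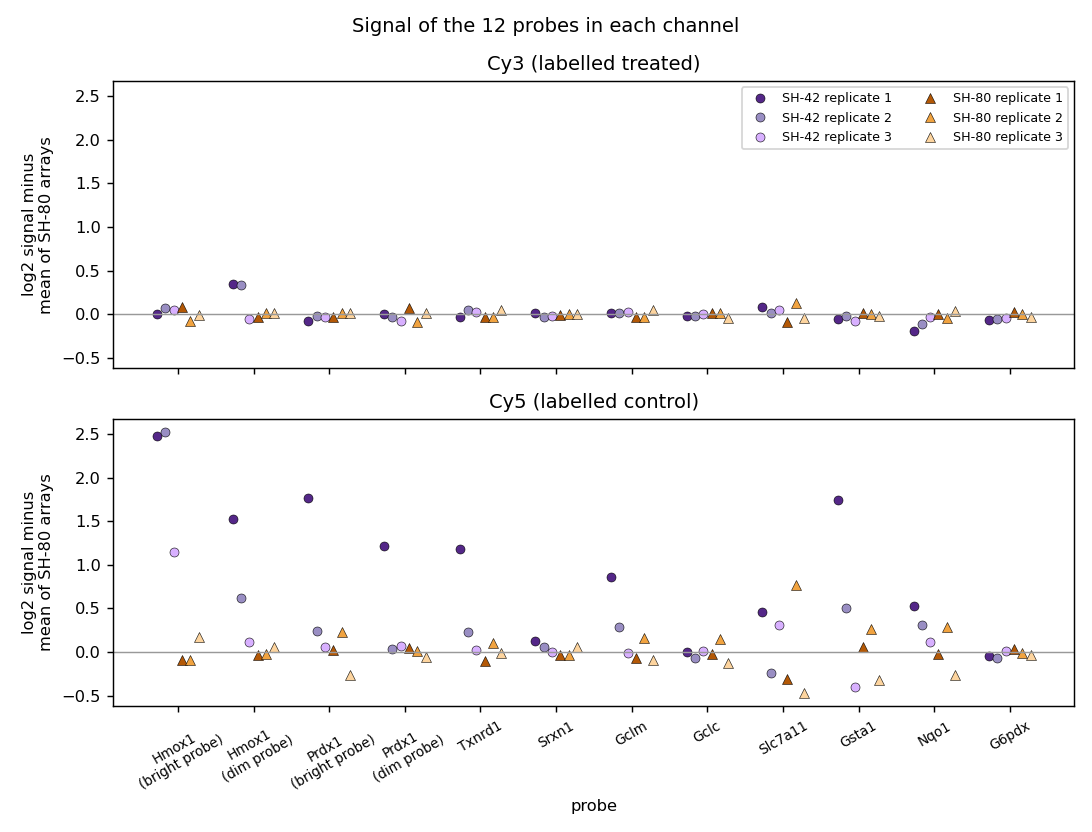
Log2 signal of the 12 probes minus the mean of the 3 SH-80 arrays, in Cy3 (top) and Cy5 (bottom), 1 symbol per array, circles for SH-42 and triangles for SH-80. In Cy3 nearly all points lie close to 0, and in Cy5 the bright Hmox1 probe is raised on all 3 SH-42 arrays, while Prdx1, Txnrd1, Gclm and Gsta1 are raised mainly on SH-42 replicate 1.

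The Cy5 signal of SH-42 replicate 1 was more than 0.5 log2 units above every other array for 4 of the 10 genes by their brightest probe (Prdx1, Txnrd1, Gclm and Gsta1). The same held for 8.51% of all features. In limma at an adjusted p under 0.05, 1 of the 10 genes, Hmox1, was called for SH-42 (lower), where 12.2% of features were called, 7.53% lower and 4.68% higher. For SH-80 0 of the 10 were called by limma (2 at an unadjusted p under 0.05), where 18.2% were called, 12.2% lower and 5.96% higher. The call of Hmox1 for SH-42 was lost in 7 of the settings tried (limma adjusted p of 0.093 with outlying local backgrounds kept, 0.098 with the replicate block, 0.17 with the arrays of the compound alone, 0.12 without SH-42 replicate 2, and 0.061 without SH-80 replicate 1, 2 or 3). For SH-80 Hmox1 was called in 2 settings. With the arrays of the compound alone its limma adjusted p was 0.0084, and 9230 of the 24105 features were called. Without SH-42 replicate 3 its limma adjusted p was 0.026, and 3498 features were called. Since these ratios chose the genes, nothing is read from these counts and p-values. The median over the 10 genes was -0.03 for SH-42 and 0.26 for SH-80, and the median over all features was -0.03 for both.

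Likeness between the genes was described by the correlation of their log2 ratios. Over the 6 arrays the bright Prdx1 probe correlated with Txnrd1 at r = 0.99, with Gclm at 0.97, with Gsta1 at 0.96 and with Nqo1 at 0.85. Hmox1 correlated with Srxn1 at 0.85, with Nqo1 at 0.74, with Gclm at 0.74, with Gsta1 at 0.69, with Txnrd1 at 0.69 and with Prdx1 at 0.67, while Slc7a11, G6pdx and Gclc were at 0.06, -0.00 and -0.14. Without SH-42 replicate 1 the correlation of Hmox1 was 0.77 with Srxn1, 0.63 with Txnrd1, 0.57 with Gclm and with Nqo1, 0.47 with Prdx1, 0.45 with Gsta1, -0.13 with G6pdx, -0.21 with Slc7a11 and -0.28 with Gclc. These are descriptions over 6 arrays that share slides and dyes. The ratios of Srxn1 ran only from -0.04 to 0.10, and Slc7a11 was too dim for a ratio.

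The 5 named features with ratios most like those of Hmox1 over the 6 arrays were Zfp668 (r = 0.99), Mpdu1 (0.99), Slamf8 (0.98), Snx1 (0.98) and Oit3 (0.98). They were picked as the highest in a search of the 15956 features with a symbol. With only 6 arrays such a search yields high values by selection, so nothing is read from them. Zfp668 encodes a zinc finger protein, Mpdu1 a protein needed to use dolichol-linked mannose, Slamf8 a receptor of the SLAM family found on myeloid cells, and Snx1 a sorting nexin of endosomes. Their ratios spanned far less than those of Hmox1. Slamf8, for instance, had -0.34, -0.38 and 0.02 on SH-42 replicates 1, 2 and 3 and 0.18, 0.12 and 0.15 on SH-80 replicates 1, 2 and 3. None of the 5 is one of the 10 genes or on the wider list of NRF2-linked genes.

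Hmox1 acts at the head of a pathway, and 3 genes downstream of it were singled out after their values were seen. Blvrb, a biliverdin reductase, had log2 ratios of -1.49, 0.45 and 0.56 on SH-42 replicates 1, 2 and 3 and of 0.65, 0.40 and 0.63 on SH-80 replicates 1, 2 and 3. Fth1, the ferritin heavy chain that stores the released iron, had -1.08, 0.22 and 0.36 on the SH-42 arrays and 0.35, 0.18 and 0.30 on the SH-80 arrays. Ftl1, the ferritin light chain, had -1.75, 0.68 and 1.19 on the SH-42 arrays and 1.07, 0.78 and 1.11 on the SH-80 arrays. All 3 had the shape of Prdx1, with SH-42 replicate 1 alone below 0, and on SH-42 replicate 2, where Hmox1 read -1.93, they were above 0. Blvra, another biliverdin reductase of the wider list, had positive fitted means for both compounds. They were 0.16 ± 0.10 (SE) for SH-42 and 0.27 ± 0.10 (SE) for SH-80, neither called (limma adjusted p = 0.34 and 0.12). Hmox2, the constitutive haem oxygenase, differed from the shapes of Hmox1 and Prdx1, with -0.13 to -0.23 on all 6 arrays by its brighter probe and -0.07 to 0.19 by its dimmer one. It was called lower for SH-42 by the brighter probe (-0.21 ± 0.05, SE of the fit, n = 3, limma adjusted p = 0.047) and not for SH-80 (-0.17 ± 0.05, limma adjusted p = 0.057), and with the mean of both probes it was not called for SH-42 (-0.11, limma adjusted p = 0.19).

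Of the regulators, Nfe2l2 itself followed the Prdx1 shape. Its log2 ratios were -0.88, 0.27 and 0.49 on SH-42 replicates 1, 2 and 3, and 0.36, 0.32 and 0.55 on SH-80 replicates 1, 2 and 3. The fitted means were -0.04 ± 0.25 (SE) for SH-42 and 0.41 ± 0.25 (SE) for SH-80, neither called (limma adjusted p = 0.92 and 0.28). Without SH-42 replicate 1 the SH-42 value turned to 0.38 and was called (limma adjusted p = 0.026), and the SH-80 value of 0.41 was called too (limma adjusted p = 0.007). Keap1, the inhibitor, had 0.11 ± 0.06 and 0.03 ± 0.06 (SE), and Bach1, the repressor that competes for the same elements, had -0.11 ± 0.07 and 0.18 ± 0.07 (SE), for SH-42 and SH-80. None of these 4 values was called, with limma adjusted p of 0.24, 0.72, 0.31 and 0.11 in that order. Median centring turned Keap1 to -0.15 and -0.24, and Bach1 for SH-80 to -0.04.

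The wider list held 64 further NRF2-linked genes in 8 role groups, all measured. For SH-42, 4 were called (6.25%, against 12.2% of all features): Cat (-0.34), Rbx1 (-0.28) and Hmox2 (-0.21) lower, and Gpx2 (0.67) higher. Catalase, encoded by Cat, splits hydrogen peroxide, RBX1 is part of the ligase that marks NRF2 for degradation, and GPX2 is a glutathione peroxidase. For SH-80, 5 were called (7.81%, against 18.2%): Cat (-0.43), Mafg (-0.33), Rbx1 (-0.26) and Cbr1 (-0.25) lower, and Sqstm1 (0.31) higher. MAFG is a partner of NRF2 on DNA, CBR1 a carbonyl reductase, and SQSTM1 (p62) an autophagy receptor that can hold KEAP1. For SH-42 minus SH-80 none was called by limma (2 at an unadjusted p under 0.05).

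These calls moved with the choice of probe and with single arrays. The Gpx2 value came from 2 SH-42 arrays, because its spot on replicate 2 was left out for an outlying local background. The mean of all probes of a gene gave Cat -0.13 and -0.09 and Rbx1 -0.07 and -0.05 for SH-42 and SH-80, and Mafg -0.14 for SH-80, none of them called, and median centring gave Sqstm1 0.08 for SH-80. Without SH-42 replicate 1 the list had 15 calls for SH-42 and 26 for SH-80, where 5700 and 10139 of all 24105 features were called. For SH-42 it had 0 calls without SH-42 replicate 2, SH-42 replicate 3, SH-80 replicate 1 or SH-80 replicate 3 (limma, 7 or 8 at an unadjusted p under 0.05 in each), and 2 without SH-80 replicate 2. For SH-80 there was 1 call once SH-42 replicate 2 was left out, and 0 once SH-80 replicate 1, 2 or 3 was left out (limma, 6 or 8 at an unadjusted p under 0.05).

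By role, the groups of the wider list differed in how far SH-42 replicate 1 stood apart. The median log2 ratio of the whole list was -0.50 on SH-42 replicate 1 and -0.02 to 0.24 on the other 5 arrays. On SH-42 replicate 1 the median was -1.22 for quinone, aldehyde and conjugation enzymes, -1.19 for glutathione use, -0.54 for haem breakdown and iron, -0.43 for glutathione synthesis and transport and -0.31 for the thioredoxin system. It was -0.24 for NADPH supply and -0.07 for the regulators. Superoxide and peroxide enzymes read -0.34 there and were negative on the other 5 arrays too (-0.21 to -0.04). For SH-42, 13 of the 64 genes had a positive and 51 a negative mean, with a median of -0.16, and for SH-80 41 had a positive and 23 a negative mean, with a median of 0.11, beside -0.03 for all features in both.

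Markers of other cells moved on that array too. The 8 measured of 10 listed microglia and macrophage genes, among them Aif1, Csf1r and Cx3cr1, had a median log2 ratio of -1.72 on SH-42 replicate 1, against 0.17 and 1.05 on SH-42 replicates 2 and 3 and 0.67 to 0.89 on the SH-80 arrays. Aif1 alone read -1.65, 0.13 and 1.31 on SH-42 replicates 1, 2 and 3. The summed Cy5 signal of the list was 51306 to 93929 on SH-42 and 54683 to 67175 on SH-80 arrays. The 7 Müller glia genes had a median of -1.09 on SH-42 replicate 1 and 0.00 to 0.24 elsewhere, and the 5 rod genes 0.63 against -0.26 to 0.12. Their part in the values of Hmox1, Prdx1, Txnrd1, Gclm, Gsta1 and Nqo1 was not tested. On SH-42 replicate 2 the Hmox1 ratio was -1.93 by the bright and -0.18 by the dim probe, the microglia and macrophage median was 0.17 and the Müller glia median 0.04. The summed Cy5 signal of the microglia and macrophage list on that array, 70041, was the next highest after SH-42 replicate 1 and above its Cy3 sum of 60078. The Cy5 sum of the list was above its Cy3 sum on every array but SH-42 replicate 3, for instance 67175 against 54066 on SH-80 replicate 3. The sum and the median thus pointed opposite ways on the SH-80 arrays. For SH-80, 7 of the 8 genes had a positive mean ratio and 1 a negative one. A sum is weighted to the brightest genes and does not stand for the whole list. Over all features the Cy5 sum was the higher on every array. The 7 lens fibre genes ranged from -1.77 to 3.02 between arrays in an order unlike that of Hmox1.

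**Figure D4:**
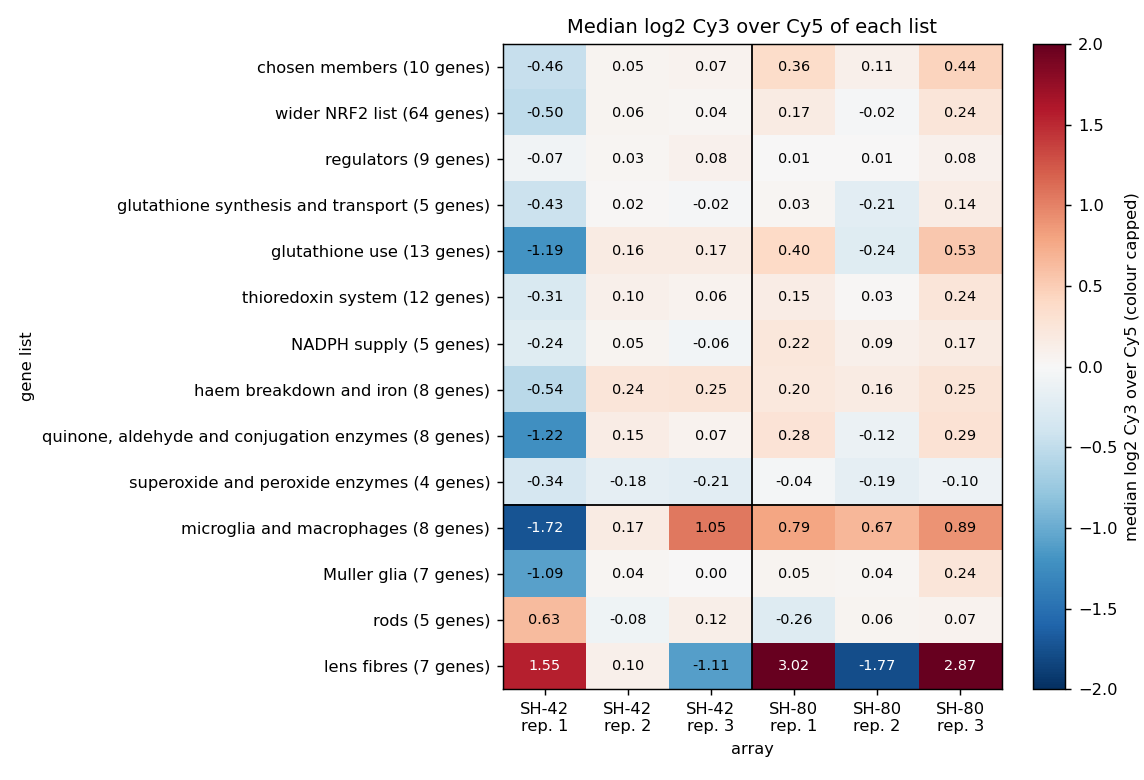
Median log2 Cy3 over Cy5 of each gene list (rows) on the 6 arrays (columns), NRF2-linked lists above the horizontal line and cell markers below it, with the value in each cell. SH-42 replicate 1 is lowest for the 10 chosen genes (-0.46), the wider list (-0.50), glutathione use (-1.19) and the microglia and macrophage genes (-1.72).

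The Hmox1 values were recomputed under the other settings. The SH-42 mean stayed between -1.94 and -0.96 under every setting tried, and the SH-42 minus SH-80 difference between -2.46 and -1.09. The SH-80 mean stayed between 0.31 and 0.61, leaving aside the fit with slide as a fixed block. That fit gave an SH-80 coefficient of -0.17, for a point midway between the slides. No SH-80 array was on slide 1, so the coefficient rests on the slide gap of the SH-42 arrays. It is not a mean of the SH-80 arrays. The ranges describe the ratio and not its call, which was lost for SH-42 in 7 settings.

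**Figure D5:**
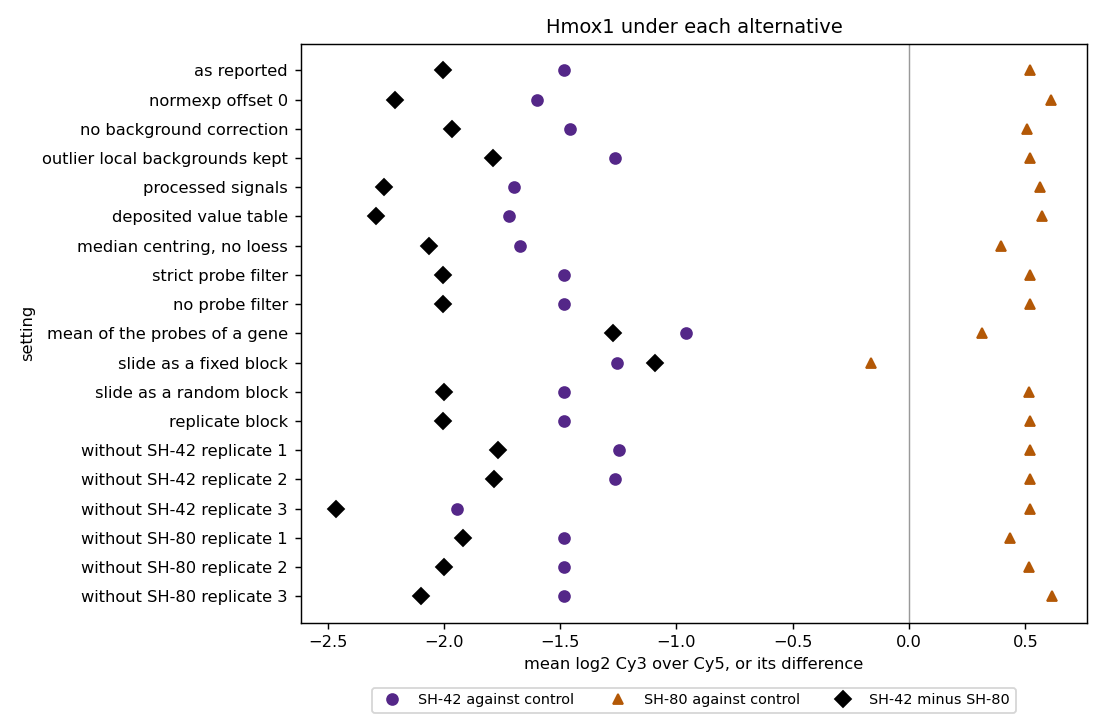
Mean log2 Cy3 over Cy5 of Hmox1 for SH-42 (circles) and SH-80 (triangles), and their difference (diamonds), under each setting, 1 line per setting. The SH-42 mean and the difference lie left of 0 on every line. The SH-80 value lies right of 0 on every line but that with slide as a fixed block (-0.17). On that line it is a coefficient for a point midway between the slides, and no SH-80 array was on slide 1.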

How the data were processed

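The members and gene lists were chosen with earlier results of these data known. Per the file headers, the scanner files hold the deposited intensity of each spot and its local background in both channels, with spot flags as other values, a processed signal and a log10 ratio of red over green. Agilent Feature Extraction is given as 11.0.1.1 in the headers and as 9.3.2.1 in the submitters' processing notes, which was not settled. The authors' deposited value table holds, from its values, log2 of Cy5 over Cy3, and the medians of its columns are -0.0531, -0.0606 and -0.0612 (SH-42, replicates 1 to 3) and -0.0611, -0.0464 and -0.0754 (SH-80, replicates 1 to 3). It was used as an alternative.

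Median spot intensities were background corrected with normexp (offset 50) and normalised within arrays by loess in limma 3.58.1 (R 4.3.3). Before normexp, 4 to 46 spots per array with an outlying local background were left out, a step chosen after seeing the data, with keeping them as an added alternative. Channel signals were taken after loess and Aquantile. Probes were named through RefSeq identifiers (26055 of 39429 probes, 66.1%, matched). The filter kept probes that stood well above background on 3 or more arrays in Cy3 or in Cy5. The brightest probe stood for a gene, which left 24105 features. All 6 arrays entered 1 fit (lmFit, eBayes) with a coefficient for each compound, two-sided, adjusted by Benjamini-Hochberg over all features. The code was tested on simulated data. Alternatives covered background, dye normalisation, value source, filter, probes, slide, replicate block and arrays left out. With 3 arrays per compound, their number limits the precision. Named were the 10 members, Nfe2l2, Keap1, Bach1, Hmox2, up to 6 called wider-list genes per comparison by smallest p, the 5 features most correlated with Hmox1, and up to 3 markers per cell list. Plots used Python 3.11.15 and matplotlib 3.10.9. Promoter windows came from RefSeq on GRCm38.p6, whereas the array headers name mm9, so windows and probes were not placed together. Results of 1 marker gene are not reported here, and it was left out of its list.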

Additional observations from a re-analysis of the deposited data

Results flagged for a closer look

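Hmox1 differed in sign between the compounds: by its bright probe all 3 SH-42 arrays had a negative log2 ratio of Cy3 over Cy5 and all 3 SH-80 arrays a positive one, and the means differed by -2.00 (SH-42 minus SH-80). The gene was chosen on these ratios, so the difference was not tested on its own, and in the limma fit over all 24105 features 0 were called for this comparison (1045 at an unadjusted p under 0.05). The raw Cy5 intensities of that probe, in the channel labelled as control, were 1802.5, 1817.5 and 716 on the SH-42 arrays and 322 to 349 on the SH-80 arrays. In Cy3, labelled as treated, they were 361 to 384 on all 6 arrays. Which dye carried which RNA was not settled, so the signs give no direction of effect for either compound. The dim Hmox1 probe had the same signs on every array after loess, with smaller values. On SH-42 replicate 3 its sign depended on the value source, with -0.06 after loess and 0.13 by the processed signals.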

How the results depend on the processing

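Called features, 2942 for SH-42 and 4385 for SH-80, moved by over 1.5 times under many settings, and the causes were not tested. For SH-42 they numbered 145 with outlying local backgrounds kept, 9390 with median centring and no loess, 1204 with the strict and 4824 with no probe filter, and 1142 with slide as a fixed block. They numbered 0 with the replicate block and 0 with the arrays of the compound alone (limma, 6067 and 4975 at an unadjusted p under 0.05). For SH-80 they numbered 10328 with median centring, 2428 with the strict filter, 1 with slide as a fixed block, 9230 with the compound's arrays alone, and 0 with the replicate block (limma, 7217 unadjusted). Leaving out 1 array gave 1 to 5700 for SH-42 and 1 to 10139 for SH-80, both highest without SH-42 replicate 1. The lowest came without SH-42 replicate 2 for SH-42 and without SH-80 replicate 3 for SH-80. Otherwise SH-42 had 64 without SH-42 replicate 3 and 867, 814 and 1047 without SH-80 replicates 1, 2 and 3, and SH-80 had 2290 without SH-42 replicate 2 and 25 and 221 without SH-80 replicates 1 and 2. The share of calls that were higher fell from 38.3% to 24.3% (SH-42) and from 32.8% to 22.4% (SH-80) with median centring, and was 9.7% for SH-42 with outlying backgrounds kept and 51.0% and 45.2% with no filter. Deviations of same-numbered arrays correlated at -0.14, -0.48 and 0.15, and those of differently numbered arrays at -0.32 to 0.46. With 3 arrays per compound these values cannot decide whether replicate numbers pair the arrays.

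Of the wider list, 4 were called for SH-42. The count was 1 with offset 0, the mean of probes or the slide block, 2 with processed signals, the deposited table or the strict filter, 22 with median centring, and 0 with outlying backgrounds kept, the replicate block or the compound's arrays alone (limma, 6 to 8 unadjusted). For SH-80, 5 were called, and 3 with offset 0 or processed signals, 15 with median centring, 2 with the mean of probes, 0 with the slide or replicate block (limma, 4 and 9 unadjusted), and 27 with the compound's arrays alone. Leaving out 1 array gave 0 to 15 and 0 to 26. For SH-42 minus SH-80 every setting gave 0 calls over all features and in the list in limma (263 to 2190 features unadjusted).

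The log ratio of Hmox1 for SH-80, 0.52, was 0.31 with the mean of its probes and -0.17 with slide as a fixed block, and the difference of -2.00 was -1.27 and -1.09. With slide as a fixed block, SH-80 values and calls refer to a point midway between the slides. No SH-80 array was on slide 1, so they are not means of the SH-80 arrays. Leaving out 1 array gave -1.94 to -1.25 for SH-42, 0.43 to 0.61 for SH-80 and -2.46 to -1.77 for the difference. The sign reversed for Nfe2l2 for SH-42 without SH-42 replicate 1 (0.38, the highest with 1 array left out, the lowest being -0.31) and for Keap1 for SH-80 with median centring (-0.24).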

Other observations

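A further wider-list gene, singled out after its values were seen, had a shape unlike both Hmox1 and Prdx1. Aldh3a1, an aldehyde dehydrogenase abundant in the cornea, had log2 ratios by its bright probe of -0.15, -0.19 and -1.45 on SH-42 replicates 1, 2 and 3 and of -0.15, -1.75 and -0.28 on SH-80 replicates 1, 2 and 3. Gstm1, a glutathione S-transferase, was also lowest on SH-80 replicate 2 (-1.71) and low on SH-42 replicates 1 (-1.19) and 3 (-1.15), and near 0 or positive on the other 3 arrays. Lens fibre genes had their lowest medians on the same arrays as Aldh3a1, -1.11 on SH-42 replicate 3 and -1.77 on SH-80 replicate 2, and their part in these values was not tested.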
